A study of Mus musculus with 32 samples.

Results

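Grb10, Mest, Nnat, Snrpn, Mkrn3, Peg3, Plagl1, Zdbf2, Peg10 and Impact are imprinted genes whose domains are controlled by regions that carry DNA methylation on the maternal copy. They were chosen by name as 10 of the 21887 protein-coding genes of the mouse annotation, and each was followed over a window made of its annotated span plus 5 kb on each side. The study used CUT&Tag, in which an antibody directs a transposase to chromatin carrying a given mark, on primary oocytes from the ovaries of mice. Lists cover H3K27me3, which Polycomb repressive complex 2 (PRC2) deposits, in 10 groups, and H2AK119ub, which Polycomb repressive complex 1 (PRC1) deposits, in 6. The labels name 2 samples per group, 32 in all, and the authors deposited 1 peak list per group.

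Wild-type (WT) oocytes came from the late embryo (E18.5), postnatal day 1 (P1), postnatal day 6 as non-growing oocytes (P6) and postnatal day 7 as growing oocytes (P7), each with both marks. PRC1ctrl oocytes had the genotype Ring1-/-; Rnf2F/+; Ddx4-Cre and PRC1cKO oocytes that of Ring1-/-; Ring1F/-; Ddx4-Cre, both with H3K27me3 lists at P6 and P7. The second genotype names Ring1 for the floxed allele where the first names Rnf2, so the deleted gene of the PRC1cKO was not settled here, and both groups lacked Ring1. PRC2ctrl oocytes were EedF/+; Ddx4-Cre and PRC2cKO oocytes EedF/-; Ddx4-Cre, both at P6 with both marks. Ddx4-Cre is a recombinase expressed in germ cells, and all 4 mutant and control genotypes carried it.

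Genomic imprinting is the expression of a gene from only the maternal or only the paternal copy. At the loci described here the difference is set in the female germ line, where the control region acquires DNA methylation while the oocyte grows, after birth. H3K27me3 is a repressive histone mark that spreads as broad domains and is largely kept apart from DNA methylation at CpG-rich sequence, and H2AK119ub is a second Polycomb mark often found with it.

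The 10 genes differ in role. Grb10 encodes a signalling adaptor that restrains growth, Mest a protein of the hydrolase fold family, Nnat the small membrane protein neuronatin and Snrpn a protein of small nuclear ribonucleoproteins. Mkrn3 encodes a makorin zinc finger protein known for restraining the onset of puberty, Peg3 and Plagl1 encode zinc finger proteins that bind DNA, and Zdbf2 a protein with a DBF-type zinc finger. Peg10 derives from a retrotransposon and is needed for the placenta, and Impact encodes an inhibitor of the translation kinase GCN2. Other protein-coding genes overlapped 6 of the windows, namely Copg2 (Mest), Blcap (Nnat), Snurf (Snrpn), Usp29 (Peg3), Gpr1 (Zdbf2) and Sgce (Peg10). A peak in the shared part of such a window cannot be assigned to either gene alone.

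Annotated starts were available for 8 of the 10 genes in RefSeq (GRCm38.p6), 15 starts in all. The 5 sequences here are the 250 bases before a start, chosen because their windows held or lost the marks in the most distinct ways. Capitals mark TGCCGC or its reverse complement GCGGCA, the core of the motif bound by ZFP57, a zinc finger protein known for guarding methylated imprints.

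Mest, second start, chromosome 6, 30737800 to 30738049, plus strand: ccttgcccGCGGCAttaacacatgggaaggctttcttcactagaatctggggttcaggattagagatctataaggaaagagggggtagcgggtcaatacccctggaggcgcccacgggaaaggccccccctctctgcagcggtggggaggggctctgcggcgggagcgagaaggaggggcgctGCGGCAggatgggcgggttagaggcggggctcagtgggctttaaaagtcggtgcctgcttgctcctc

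Plagl1, chromosome 10, 13090582 to 13090831, plus strand: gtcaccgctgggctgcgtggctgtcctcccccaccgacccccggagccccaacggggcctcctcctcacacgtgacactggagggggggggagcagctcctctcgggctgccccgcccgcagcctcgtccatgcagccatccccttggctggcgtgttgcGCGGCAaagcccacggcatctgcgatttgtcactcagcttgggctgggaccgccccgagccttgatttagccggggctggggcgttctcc

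Zdbf2, first start, chromosome 1, 63200108 to 63200357, plus strand: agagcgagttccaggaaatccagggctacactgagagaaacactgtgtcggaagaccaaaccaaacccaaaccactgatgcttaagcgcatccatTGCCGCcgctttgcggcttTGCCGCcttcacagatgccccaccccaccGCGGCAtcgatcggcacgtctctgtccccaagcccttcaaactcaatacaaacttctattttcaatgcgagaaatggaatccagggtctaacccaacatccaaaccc

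Zdbf2, second start, chromosome 1, 63273019 to 63273268, plus strand: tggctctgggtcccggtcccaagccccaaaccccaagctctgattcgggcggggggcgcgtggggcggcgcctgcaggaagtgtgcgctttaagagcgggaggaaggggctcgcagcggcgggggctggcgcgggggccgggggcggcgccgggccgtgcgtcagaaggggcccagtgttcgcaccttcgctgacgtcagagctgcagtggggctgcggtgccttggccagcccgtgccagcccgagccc

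Grb10, first start, chromosome 11, 12037421 to 12037670, minus strand: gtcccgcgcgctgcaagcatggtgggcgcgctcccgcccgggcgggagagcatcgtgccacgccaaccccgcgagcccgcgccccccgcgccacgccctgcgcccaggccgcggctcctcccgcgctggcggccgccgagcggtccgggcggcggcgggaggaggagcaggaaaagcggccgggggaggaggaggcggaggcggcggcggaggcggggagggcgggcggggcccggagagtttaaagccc

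The motif was searched on both strands, and 4 of the 15 start windows held it, against 10.2% of 21263 coding starts. The last 2 of the 3 Mest starts lie 3 bases apart and share their matches, so these 4 windows come from 3 genes. Mest held 2 matches, Plagl1 1 and the first Zdbf2 start 3, while the second Zdbf2 start and the first Grb10 start held none. CpG pairs numbered 40 before the first Grb10 start and 26 before the second Zdbf2 start, above 98.3% and 87.7% of coding starts. The Plagl1 window had 19 and the second Mest window 14. The 4 Snrpn windows had between 2 and 4, and the median was 10.0 both for the 15 windows and for all coding starts. A match is a run of letters and was not tested as a binding site.

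Peaks per list numbered from 49615 to 83994, with covered lengths from 244.2 to 728.3 Mb. Read depth is unknown from the deposited lists, and with 1 list per group no difference has a replicate check or a p-value. Covered length in kb, or its share of the window, is therefore given beside the same measure over all protein-coding genes. A gene was called lost when it had at least 2 kb covered in the first list and at most 50% of that length in the second, and gained in the reverse case. As a check of the cell type, 4 of 4 granulosa genes carried H3K27me3 in all 10 lists, with median shares between 68.9% and 80.6%. Of 5 germ cell genes, between 1 and 3 had a peak and the median lay between 0 and 4.82%, with a highest single share of 26.7% in WT at P7. Between 48.7% and 59.6% of all genes had an H3K27me3 peak. In its 6 lists H2AK119ub lay on 4 of 4 granulosa genes and on 3 to 5 of the 5 germ cell genes. Its median shares were 67.9% to 93.6% and 6.15% to 24.7%. A repressive mark is not a measure of expression, and the part of other cells in the peaks was not tested.

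H3K27me3 was found on 7 of the 10 genes in WT oocytes at each of the 4 stages, with Impact in place of Mest at P7. The shares of all genes with a peak were 55.3% at E18.5, 54.5% at P1, 56.7% at P6 and 59.6% at P7, near the count among the 10. The counts were 8 in PRC1ctrl and 7 in PRC1cKO at P6 (55.0% and 55.1% of all genes), and 6 and 7 at P7 (54.0% and 54.6%). They were 7 in both PRC2ctrl and PRC2cKO (55.2% and 48.7%). Wide coverage was rarer and changed more with stage. At least 50% of the window carried H3K27me3 in 1, 1, 2 and 0 of the 10 genes over the WT stages, against 19.6%, 21.2%, 22.6% and 27.3% of all genes. The counts were 2 in PRC1ctrl and 1 in PRC1cKO at P6 (21.6% and 20.0%), 0 and 1 at P7 (21.0% and 18.0%), and 3 and 2 in PRC2ctrl and PRC2cKO (23.0% and 16.8%). Most of the 10 genes were thus marked over part of the window, at a single end or in separate stretches.

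**Figure D1:**
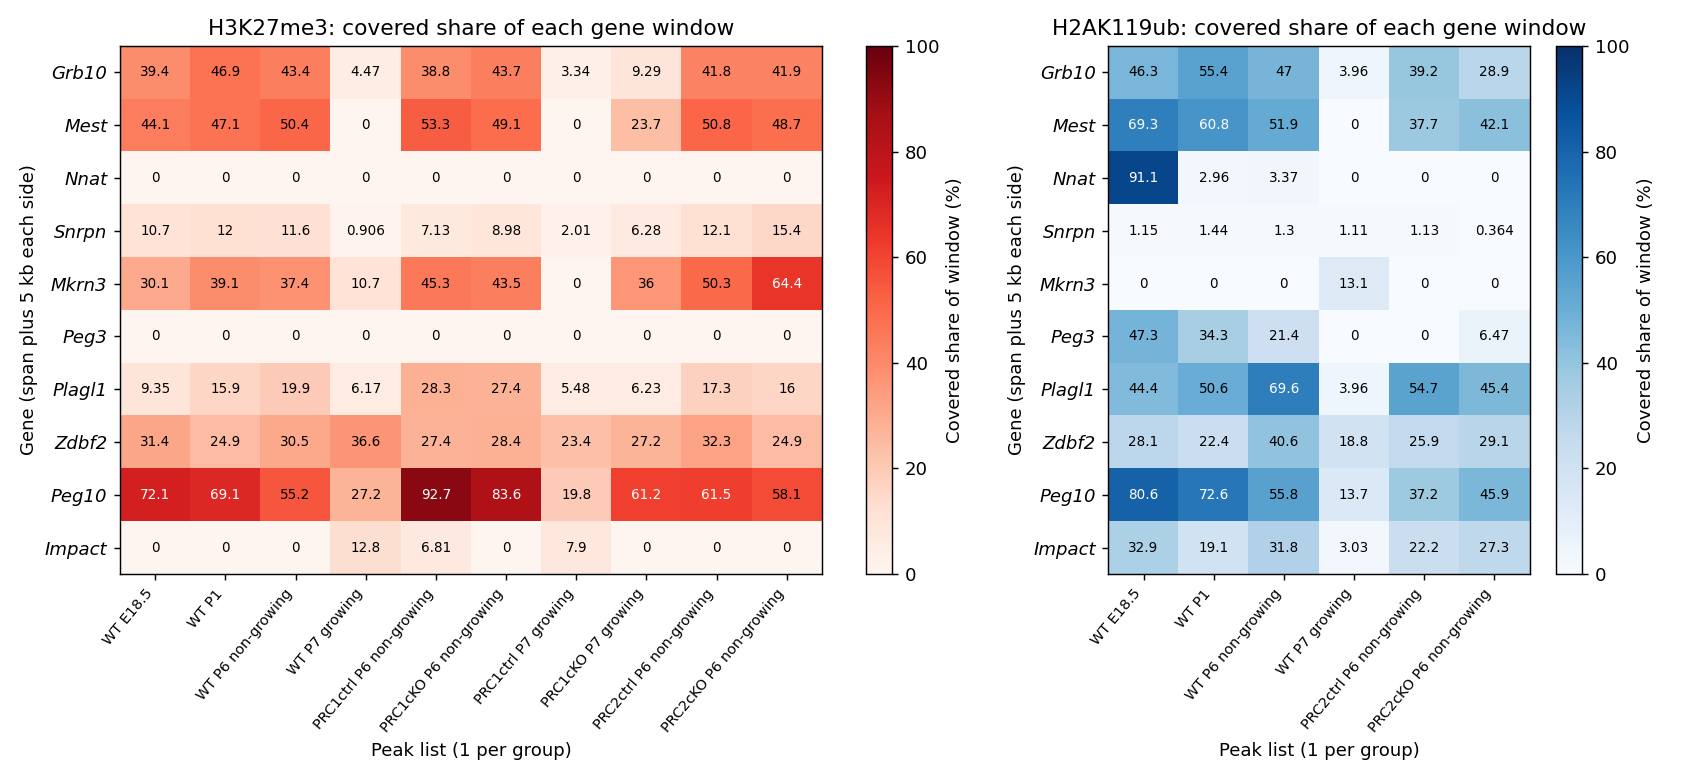
Share of each gene window (span plus 5 kb each side) covered by peaks of H3K27me3 (left, 10 lists) and H2AK119ub (right, 6 lists), with 1 list per group, given as a number in each cell. Peg10 reached 92.7% for H3K27me3 in PRC1ctrl at P6, Nnat and Peg3 had no H3K27me3 in any list, and most windows were near empty in the WT P7 lists.

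In the 3 WT lists made before growth, Peg10, Mest and Grb10 had the widest shares of H3K27me3. In the other P6 lists Mkrn3 reached 45.3% in PRC1ctrl, 50.3% in PRC2ctrl and 64.4% in PRC2cKO, above Grb10. The Peg10 window (chromosome 6, gene 4747306 to 4760517) was covered over 16.7 kb at E18.5, 16.0 kb at P1 and 12.8 kb at P6 in WT. It was covered over 21.5 kb in PRC1ctrl and 19.4 kb in PRC1cKO at P6, which was 92.7% and 83.6% of the window. The domain ran beyond the window towards Sgce, and its widest peak measured 44.7 kb in PRC1ctrl.

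At Mest (chromosome 6, gene 30733506 to 30748466) covered length was 11.0, 11.8 and 12.6 kb in WT at E18.5, P1 and P6. The P6 lists of the other genotypes were close to these values, with 13.3 kb in PRC1ctrl, 12.3 kb in PRC1cKO, 12.7 kb in PRC2ctrl and 12.2 kb in PRC2cKO. The gene's highest signal lay between the 95.6th and 98.9th percentile of the peaks of its own list in these 7 lists, so Mest was among the strongest peaks. The domain covered the 5' end with all 3 annotated starts and left the 3' part of the gene free.

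At Grb10 (chromosome 11, gene 11930499 to 12037428, minus strand) covered length was 46.1, 54.8 and 50.7 kb in WT at E18.5, P1 and P6. It was 45.4 kb in PRC1ctrl, 51.1 kb in PRC1cKO, 48.8 kb in PRC2ctrl and 49.0 kb in PRC2cKO at P6. The mark lay on the 5' part of the gene and reached past both annotated starts in all 7 lists made before growth.

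Zdbf2 (chromosome 1, gene 63200358 to 63314576) carried H3K27me3 in the middle of the gene, up to its second start. Covered length was 39.0, 31.0 and 37.9 kb in WT at E18.5, P1 and P6. It was 34.0 kb in PRC1ctrl, 35.3 kb in PRC1cKO, 40.1 kb in PRC2ctrl and 30.9 kb in PRC2cKO at P6. Its highest signal lay between the 90.1th and 98.9th percentile in all 10 lists.

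Snrpn (chromosome 7, gene 59982495 to 60450177, minus strand) had a scattered pattern over a long gene. Covered length was 51.0, 57.2 and 55.5 kb in WT at E18.5, P1 and P6, which was between 10.7% and 12.0% of the window. It was 34.1 kb in PRC1ctrl, 42.9 kb in PRC1cKO, 57.9 kb in PRC2ctrl and 73.7 kb in PRC2cKO at P6. No H3K27me3 list had a peak at any of its 4 annotated starts. Signal per covered base at Snrpn was 4.28 at E18.5, 5.02 at P1 and 4.56 at P6 in WT, beside list medians of 4.68, 5.23 and 5.34, whereas Zdbf2 had 13.0, 20.7 and 15.8.

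Plagl1 (chromosome 10, gene 13090832 to 13131694) had 4.76 kb at E18.5, 8.09 kb at P1 and 10.1 kb at P6 in WT. The other P6 values were 14.4 kb in PRC1ctrl, 14.0 kb in PRC1cKO, 8.81 kb in PRC2ctrl and 8.15 kb in PRC2cKO. The mark sat on the annotated start and near the 3' end. Mkrn3 (chromosome 7, gene 62417593 to 62420153) had 3.78, 4.91 and 4.70 kb in WT, then 5.69 kb in PRC1ctrl, 5.47 kb in PRC1cKO, 6.32 kb in PRC2ctrl and 8.09 kb in PRC2cKO. These peaks lay in the flanks on both sides and left the Mkrn3 gene itself uncovered in all 10 lists.

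Nnat (chromosome 2, gene 157560078 to 157562525) and Peg3 (chromosome 7, gene 6703892 to 6730462) had no H3K27me3 peak in any of the 10 lists. Impact (chromosome 18, gene 12954690 to 12992950) had 3.29 kb in PRC1ctrl at P6, 6.18 kb in WT at P7 and 3.81 kb in PRC1ctrl at P7, and 0 in the other 7 lists. Its 3 peaks overlapped one another at the boundary of the gene with the lower coordinate.

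Around birth and up to P6 the H3K27me3 of the 10 genes stayed within the call limits. From E18.5 to P1, 0 of the 7 genes with at least 2 kb were lost, against 8.48% of all such genes, and 0 of the 10 were gained, against 5.19% of all genes. From P1 to P6, 0 of 7 were lost, against 11.2%, and 0 were gained, against 8.76%. A count of 0 among 7 genes is near what these background shares give, so it sets the genes apart from no others.

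At the start of growth the pattern broke up. From P6 to P7 in WT, 6 of the 7 genes with at least 2 kb lost H3K27me3, namely Grb10, Mest, Snrpn, Mkrn3, Plagl1 and Peg10, against 17.9% of all genes with at least 2 kb. Zdbf2 stayed and Impact was the only one of the 10 that gained, against 16.1% of all genes. Grb10 went from 50.7 to 5.23 kb, Mest from 12.6 kb to 0 and Snrpn from 55.5 to 4.33 kb. These 3 genes lost the most and kept at most 5.23 kb each. Mkrn3 went from 4.70 to 1.35 kb, Plagl1 from 10.1 to 3.14 kb and Peg10 from 12.8 to 6.32 kb. The Peg10 change lay just past the limit of the call, at little more than a 2-fold difference. Zdbf2, in contrast, went from 37.9 to 45.5 kb. At a 4-fold difference the calls at Grb10, Mest and Snrpn stood and the other 3 did not, and without the flanks Mkrn3 and Peg10 were not called. Growing and non-growing oocytes came from different days, so growth and age cannot be told apart.

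Summed over the 10 windows, 19.9% was covered at P6 and 7.76% at P7 in WT, while the same sum over all genes went from 20.3% to 24.4%. The list as a whole thus covered more of the genome at P7 (618.8 Mb) than at P6 (532.5 Mb) while these genes lost coverage. The median change was a drop of 12.2 percentage points of the window for the 10 genes and 0 for all genes.

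PRC1ctrl oocytes gave a second, separate pair of lists for the same step, which shares no list with the WT pair. The same 6 genes lost H3K27me3 there, out of 8 with at least 2 kb, against 28.2% of all such genes, and 0 were gained, against 11.3%. Grb10 went from 45.4 to 3.90 kb, Mest from 13.3 kb to 0 and Snrpn from 34.1 to 9.58 kb. Mkrn3 went from 5.69 kb to 0, Plagl1 from 14.4 to 2.79 kb and Peg10 from 21.5 to 4.59 kb. Zdbf2 (34.0 to 29.0 kb) and Impact (3.29 to 3.81 kb) were not called. The covered length summed over the 10 windows went from 171.6 to 53.7 kb, and the covered share over all genes from 20.3% to 19.7%.

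**Figure D2:**
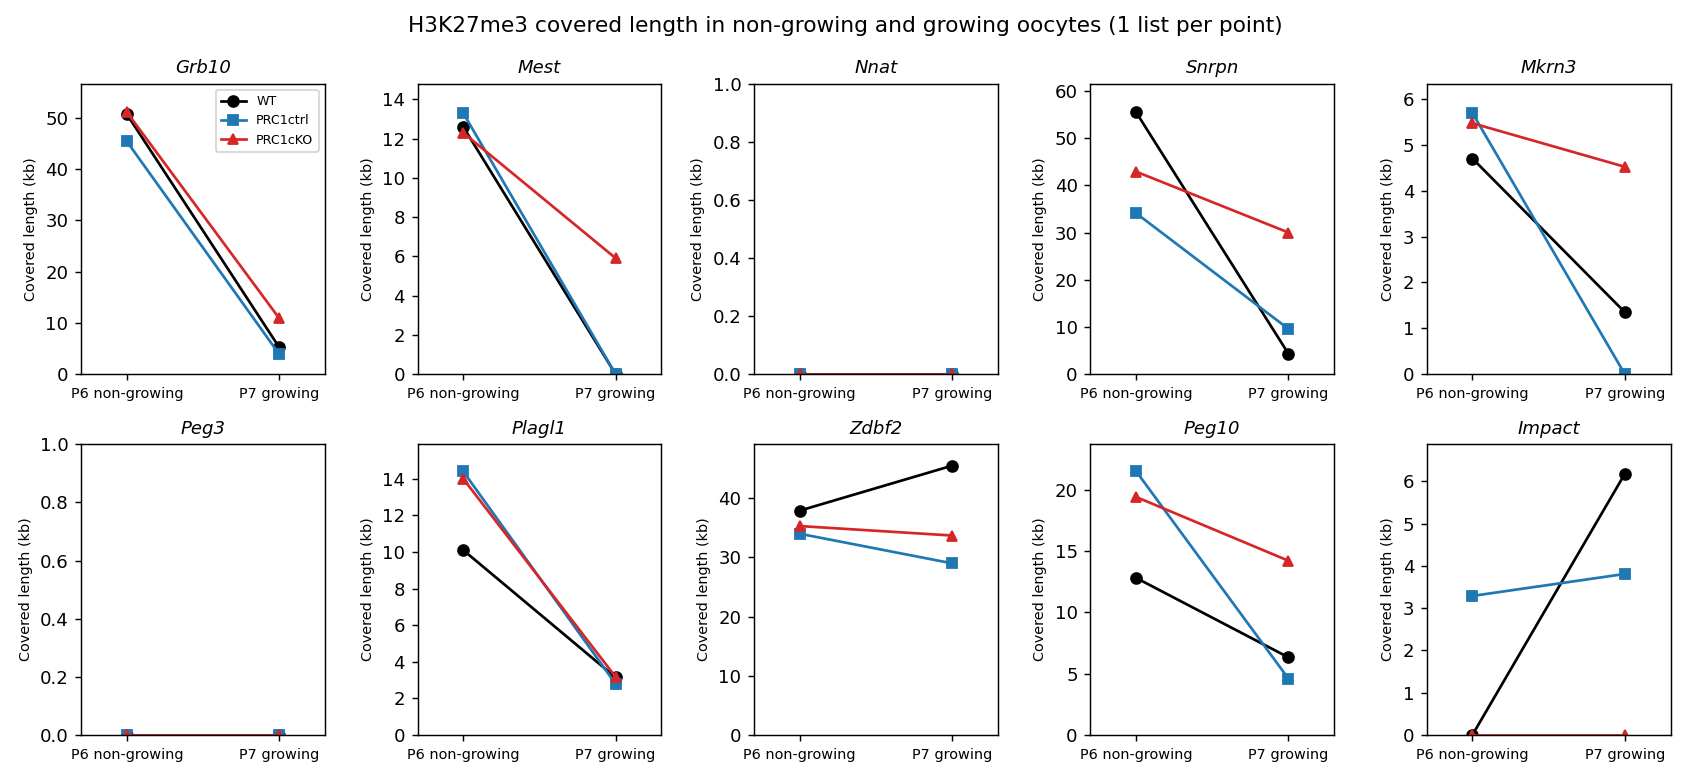
H3K27me3 covered length (kb, vertical axis, a scale of its own for each gene) in non-growing P6 and growing P7 oocytes of WT (black circles), PRC1ctrl (blue squares) and PRC1cKO (red triangles), 1 list per point and no error bars. Lines for Grb10, Mest, Snrpn, Mkrn3, Plagl1 and Peg10 drop in WT and PRC1ctrl, Zdbf2 lies between 29.0 and 45.5 kb, and the PRC1cKO points of Mest, Snrpn, Mkrn3 and Peg10 end above the other P7 points.

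The positions that lost and kept the mark were traced with core segments, defined as bases covered in all 7 lists made before growth. By this definition the coverage of a core can only stay or fall at P7. The same shares over cores of other genes were not computed. At Mest a core of 10.5 kb (30729322 to 30739851), which holds all 3 annotated starts and the second-start sequence printed above, was covered over 0% in WT and 0% in PRC1ctrl at P7. At Plagl1 the 3.26 kb core on the start (13088722 to 13091985) was also at 0% in both. The 16.9 kb core in the 5' part of Grb10 (12007741 to 12024666) was at 0% in both as well.

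Both Grb10 cores that hold an annotated start differed between the P7 lists of WT and PRC1ctrl. The 4.74 kb core on the second start (12025311 to 12030052) was covered over 100% in WT and 0% in PRC1ctrl. The 11.5 kb core on the CpG-rich first start (12030957 to 12042428) was covered over 0% in WT and 34.0% in PRC1ctrl. In PRC1ctrl the first start window itself was at 0%. The position of the remaining Grb10 peak therefore differed between these lists, although both left little of the domain. The PRC1ctrl peak lay near the floor of its list, with a summed signal of 7384 where the lowest of any peak was 7218. Its summed signal stood at percentile 2.32, and that of the WT peak at 28.3 in its own list. The difference in position thus rests on a weak peak and was not tested.

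The core of Zdbf2 was the longest of these segments, and it persisted. It measured 29.8 kb (63244049 to 63273810), ended at the CpG-rich second start, and was covered over 100% in WT and 87.4% in PRC1ctrl at P7. The first Zdbf2 start, with 3 motif matches, had H3K27me3 in 4 of 10 lists and the second in 9. At Peg10, a 5.53 kb core inside the gene (4753286 to 4758816) was kept over 86.3% in WT and 72.0% in PRC1ctrl, and the 6.59 kb core around the boundary of the gene (4742306 to 4748891) over 23.4% and 9.20%. Peg10 thus kept the mark inside the gene and lost most of it at the boundary next to Sgce.

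**Figure D3:**
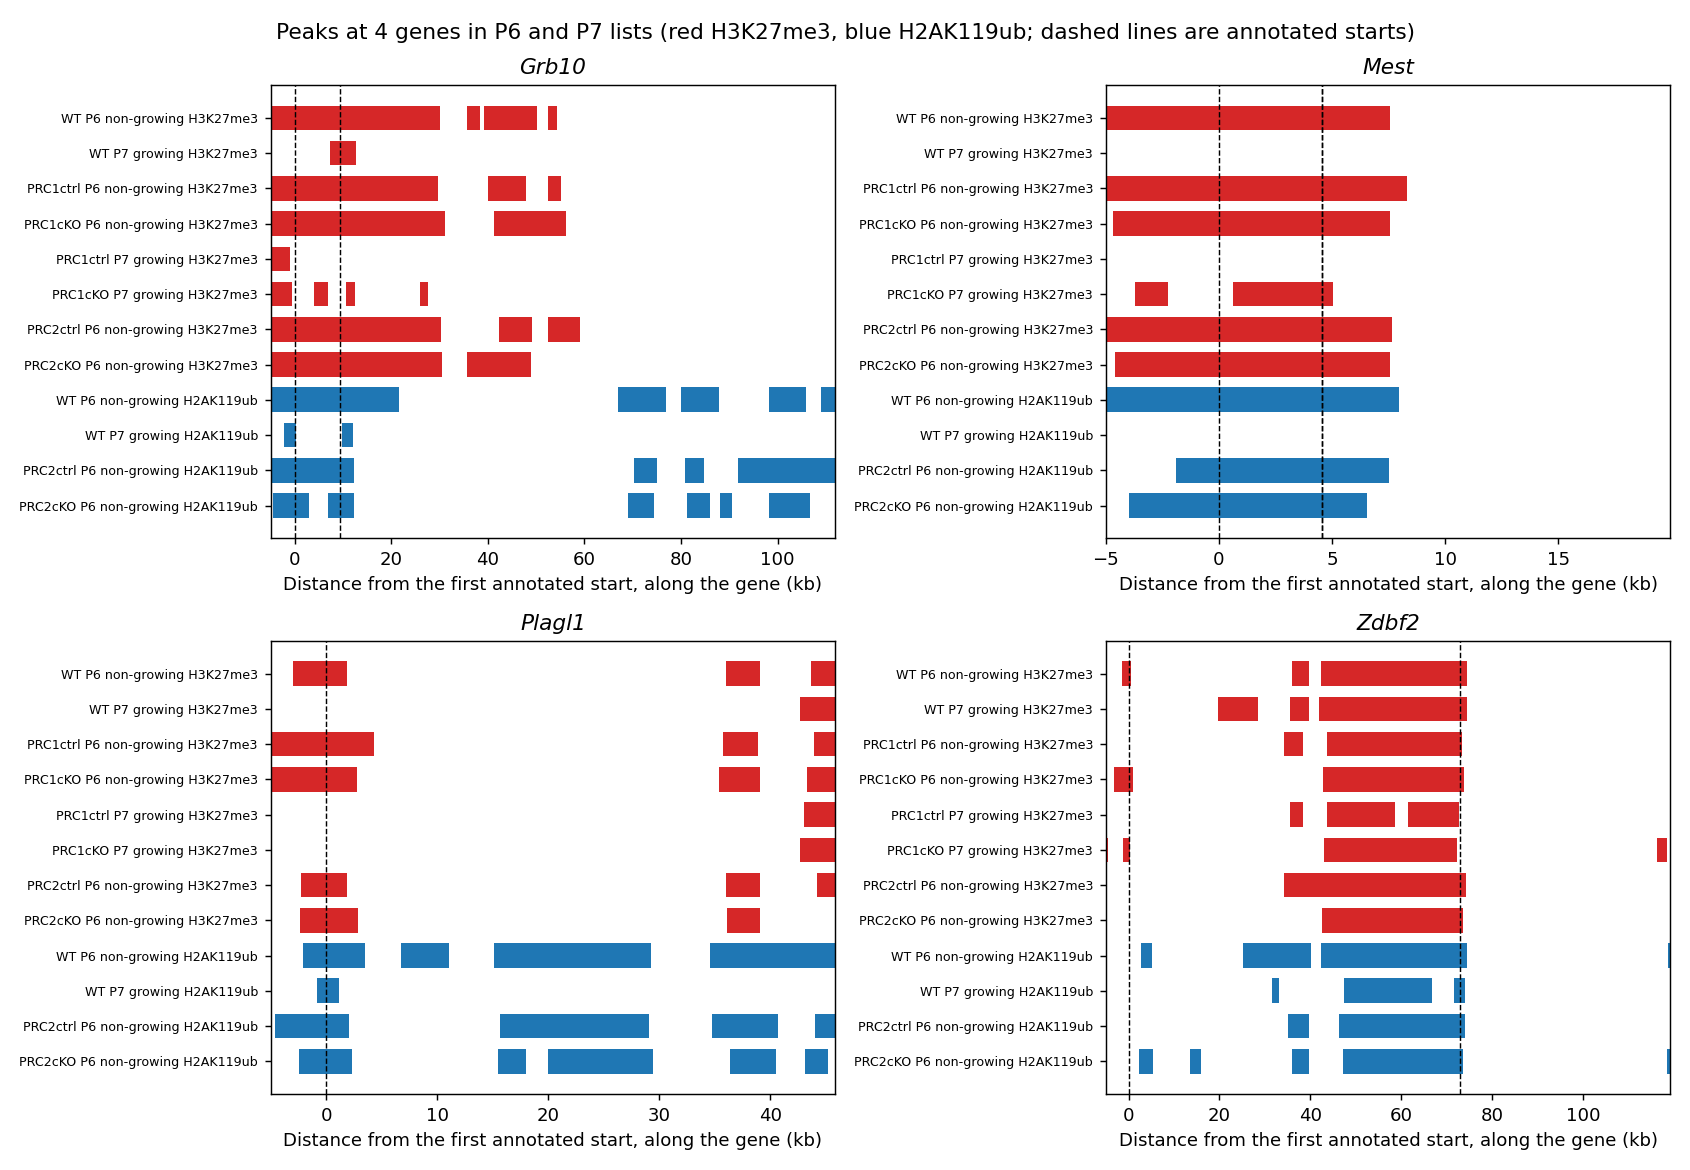
Peaks of H3K27me3 (red) and H2AK119ub (blue) along Grb10, Mest, Plagl1 and Zdbf2 in the P6 and P7 lists, 1 row per list, plotted by distance in kb from the first annotated start in the direction of the gene and cut at the window ends, with annotated starts as dashed lines. Mest had no peak of either mark in WT at P7. The 29.8 kb core segment of Zdbf2 that ends at its second start was covered over at least 87.4% in the P7 H3K27me3 rows. It is covered in the P6 rows by definition.

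In PRC1cKO oocytes H3K27me3 was longer than in PRC1ctrl at 5 of the 10 genes at the growing stage. At P7 these 5 genes were called gained relative to PRC1ctrl, namely Grb10, Mest, Snrpn, Mkrn3 and Peg10, against 10.3% of all genes. Impact was lost, as 1 of 6 genes with at least 2 kb, against 27.6%. Mest had 5.91 kb in PRC1cKO and 0 in PRC1ctrl, and Mkrn3 4.52 kb and 0. Snrpn had 30.0 kb against 9.58 kb, Peg10 14.2 kb against 4.59 kb and Grb10 10.9 kb against 3.90 kb. Plagl1 (3.17 and 2.79 kb) and Zdbf2 (33.7 and 29.0 kb) were not called. At a 4-fold difference 2 gains were called (Mest and Mkrn3), and without the flanks Mkrn3 was not called. The list totals went the other way, with 463.3 Mb covered in PRC1cKO and 491.6 Mb in PRC1ctrl.

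The PRC1cKO values at P7 were also above WT at Mest, Snrpn, Mkrn3, Peg10 and Grb10, where WT had 0, 4.33, 1.35, 6.32 and 5.23 kb. The share of all genes above WT was not computed. The lowest summed signal of any peak at P7 was 14139 in WT, 7218 in PRC1ctrl and 5094 in PRC1cKO. The scaling of these signals is unknown, and the part of such unlike lower limits in the differences at P7 was not tested. Followed from P6 to P7 within PRC1cKO, 3 genes were lost out of 7 with at least 2 kb (Grb10, Mest and Plagl1), against 26.1% of all such genes, and 0 were gained, against 7.31%. Snrpn (42.9 to 30.0 kb), Mkrn3 (5.47 to 4.52 kb), Peg10 (19.4 to 14.2 kb) and Zdbf2 (35.3 to 33.7 kb) stayed within the call limits. This pair and the comparison at P7 share the PRC1cKO P7 list, and the difference in counts between genotypes was not tested.

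By position, PRC1cKO at P7 covered 56.1% of the Mest core, 97.4% of the boundary core of Peg10 and 100% of the 3.03 kb Mkrn3 core upstream of that gene (62422123 to 62425153). It covered 59.3% of the core on the first Grb10 start and 31.9% of that on the second. Both Grb10 start windows themselves were at 0%, so these peaks lay beside the starts. The Plagl1 start core was at 0%. The Mkrn3 peaks reached the 94.6th percentile of that list by highest signal and those of Peg10 the 96.2th, whereas Mest reached the 69.7th and Grb10 the 44.2th. Mest had stood at the 98.4th percentile in PRC1cKO at P6.

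At P6, before growth, PRC1cKO and PRC1ctrl were alike in their calls. Impact was lost (3.29 kb to 0), as 1 of 8 genes with at least 2 kb, against 14.7% of all such genes, and 0 were gained, against 6.06%. Among the other members the widest difference was at Snrpn (34.1 and 42.9 kb).

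Control lists were also set beside WT, although PRC1ctrl itself lacked Ring1 and carried a floxed Rnf2 allele. Differences due to genotype and differences between single lists cannot be told apart here. Between WT and PRC1ctrl, Impact was gained at P6 as 1 of 10 genes, against 5.14% of all genes, and Snrpn was gained at P7, against 1.99%. In both comparisons 0 members were lost, against 12.4% and 23.1% of genes with at least 2 kb. The call at Impact between PRC1ctrl and PRC1cKO at P6 thus rested on a PRC1ctrl peak that WT lacked as well.

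In PRC2cKO oocytes at P6, which carry a floxed and a null Eed allele, H3K27me3 on the 10 genes was not called changed. Of 7 genes with at least 2 kb, 0 were lost, against 29.8% of all such genes, and 0 were gained, against 2.23%. Grb10 had 48.8 kb in PRC2ctrl and 49.0 kb in PRC2cKO, Mest 12.7 and 12.2 kb, and Peg10 14.3 and 13.5 kb. Snrpn had 57.9 and 73.7 kb, Mkrn3 6.32 and 8.09 kb, Plagl1 8.81 and 8.15 kb, and Zdbf2 40.1 and 30.9 kb. The percentile of the highest signal within its own list was 92.3 in PRC2ctrl and 98.1 in PRC2cKO for Grb10, 97.5 and 98.5 for Peg10, and 98.8 and 98.3 for Zdbf2. It was 95.8 and 96.4 for Mest, 92.5 and 94.4 for Mkrn3, 60.2 and 85.4 for Snrpn, and 77.3 and 68.1 for Plagl1. The PRC2cKO list as a whole covered 428.6 Mb and that of PRC2ctrl 558.4 Mb. Between WT and PRC2ctrl at P6, 0 members were lost, against 8.62%, and 0 gained, against 3.67%.

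**Figure D4:**
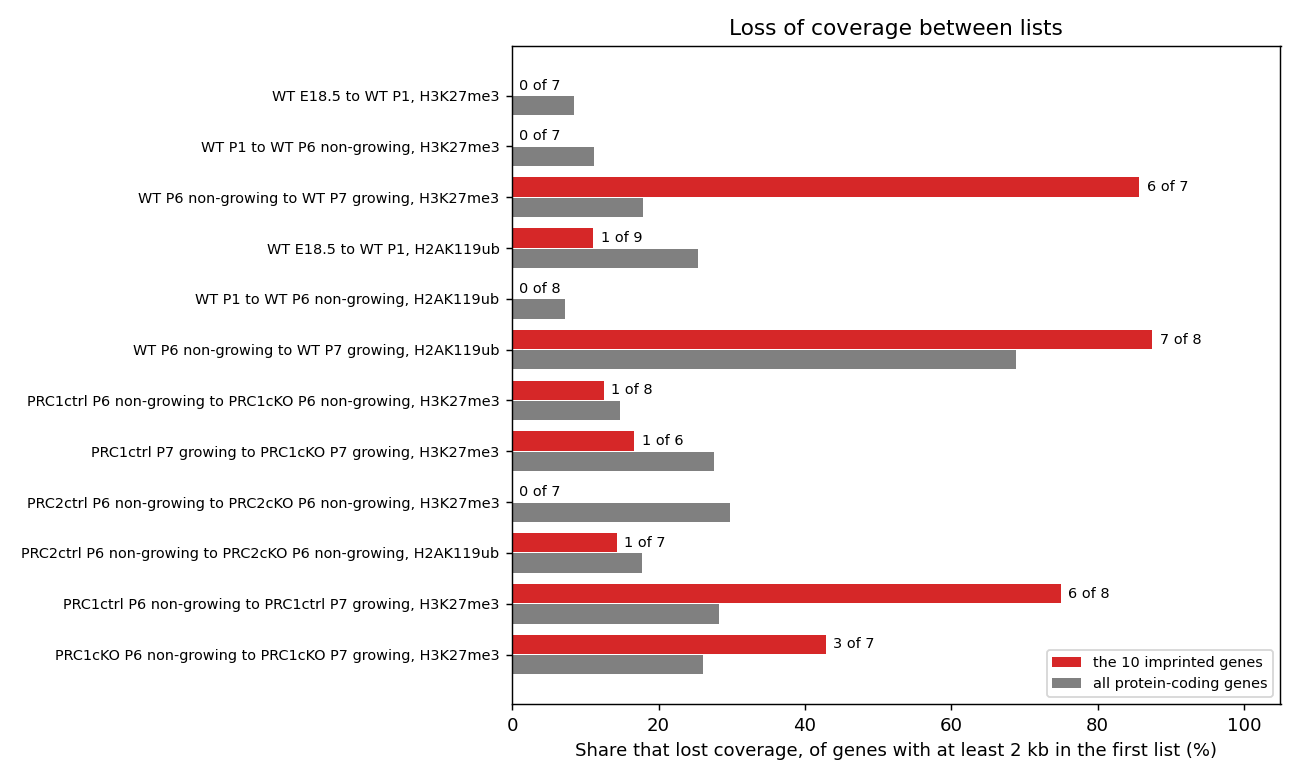
Share of genes called lost in 12 comparisons of 2 lists, in percent of genes with at least 2 kb covered in the first list, for the 10 imprinted genes (red, with counts) and all protein-coding genes (grey). The red bars exceed the grey ones at the step from P6 to P7, by 85.7% to 17.9% in WT for H3K27me3 and by 87.5% to 68.8% for H2AK119ub, where the whole list shrank.

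H2AK119ub reached more of the 10 genes than H3K27me3 in 4 of the 6 groups with both lists, and as many (7) in WT at P7 and in PRC2ctrl. In WT 9 of 10 had a peak at E18.5, P1 and P6 and 7 at P7, against 78.2%, 71.4%, 76.8% and 62.2% of all genes. PRC2ctrl had 7 and PRC2cKO 8, against 71.0% and 69.7%. These counts lie close to the background. At least 50% of the window was covered in 3, 4, 3 and 0 of the 10 over the WT stages, against 42.5%, 33.8%, 41.9% and 13.7% of all genes, and in 1 and 0 in PRC2ctrl and PRC2cKO, against 28.8% and 24.1%.

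Peg3, Nnat and Impact, which had little or no H3K27me3, carried H2AK119ub. At Peg3 covered length was 17.3, 12.5 and 7.83 kb in WT at E18.5, P1 and P6 and 0 at P7, with 0 in PRC2ctrl and 2.37 kb in PRC2cKO. At Impact it was 15.9, 9.20, 15.3 and 1.46 kb over the WT stages, with 10.7 kb in PRC2ctrl and 13.2 kb in PRC2cKO. At Nnat it was 11.3 kb at E18.5, which was 91.1% of the window, then 0.369, 0.419 and 0 kb, and 0 in both PRC2 lists. Nnat thus had more than 3.37% of its window covered in 1 list of 6.

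Grb10 had 54.2, 64.8, 54.9 and 4.63 kb of H2AK119ub over the WT stages, with 45.9 kb in PRC2ctrl and 33.8 kb in PRC2cKO. Plagl1 had 22.6, 25.7, 35.4 and 2.02 kb, with 27.8 and 23.1 kb in the PRC2 lists. In both genes the mark extended well beyond H3K27me3, into the 3' part of Grb10 and through the body of Plagl1. Mest had 17.3, 15.2, 13.0 and 0 kb, with 9.41 kb in PRC2ctrl and 10.5 kb in PRC2cKO. Peg10 had 18.7, 16.9, 13.0 and 3.18 kb, with 8.64 and 10.7 kb. At both of these genes covered length was lower at each later WT stage.

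Zdbf2 had 34.9, 27.8, 50.5 and 23.4 kb of H2AK119ub over the WT stages, with 32.2 kb in PRC2ctrl and 36.1 kb in PRC2cKO. Snrpn had 5.49, 6.88, 6.23 and 5.31 kb, with 5.41 and 1.74 kb, so that its H2AK119ub was short beside its H3K27me3. Mkrn3 had none in 5 lists and 1.65 kb at P7, on its annotated start.

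From E18.5 to P1, 1 of 9 genes with at least 2 kb lost H2AK119ub (Nnat), against 25.4% of all such genes, and 0 were gained, against 4.19%. From P1 to P6, 0 of 8 were lost, against 7.24%, and 0 gained, against 18.7%. From P6 to P7, 7 of 8 were lost (Grb10, Mest, Peg3, Plagl1, Zdbf2, Peg10 and Impact), against 68.8%, and 0 gained, against 1.33%. At this step the covered length of the whole list went from 728.3 to 244.2 Mb. With both lists trimmed to equal covered length, 1 of the 10 genes was lost (Grb10) and 3 were gained (Snrpn, Plagl1 and Peg10), so the count at this step turned with the length of the lists. For H3K27me3 the same trimming kept the same 6 genes lost in WT.

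In PRC2cKO, Snrpn lost H2AK119ub (5.41 to 1.74 kb), as 1 of 7 genes with at least 2 kb, against 17.8%, and Peg3 gained it (0 to 2.37 kb), against 5.52% of all genes. Both calls rested on short peaks. Between WT and PRC2ctrl at P6, Peg3 was lost (7.83 kb to 0), as 1 of 8, against 29.4%, and 0 were gained, against 2.91%. The gain of Peg3 in PRC2cKO was thus smaller than its difference between the control lists.

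The marks overlapped base by base on some of the genes. Before growth, 6 of the 10 had peaks of both marks in WT at E18.5, P1 and P6, against 48.9%, 47.7% and 51.2% of all genes. Mkrn3 had H3K27me3 alone, and Nnat, Peg3 and Impact had H2AK119ub alone, at all 3 stages. At Mest all H3K27me3 lay within H2AK119ub at these stages, with 11.0, 11.8 and 12.6 kb shared. At Zdbf2 32.5, 24.6 and 35.9 kb were shared, and at Grb10 24.4, 33.4 and 26.6 kb, beside 21.8, 21.4 and 24.1 kb with H3K27me3 alone. Snrpn differed, with 2.73, 3.15 and 4.28 kb shared and 48.3, 54.1 and 51.2 kb with H3K27me3 alone.

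At P7 in WT 7 of the 10 genes had a peak of each mark in the window, against 50.7% of all genes, but few bases were shared. Of the 6 genes with both marks at P6, 5 had both at P7 and Mest had neither, while Mkrn3 and Impact were added. The shared length was 21.8 kb at Zdbf2, 2.19 kb at Grb10 and 0.487 kb at Snrpn, and 0 at the others. At Mkrn3, Plagl1, Peg10 and Impact the marks lay at separate positions. In PRC2ctrl and PRC2cKO 6 of 10 had both marks, against 48.2% and 41.0%.

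Starts were counted on their own, but starts of the same gene are not independent. All 3 Mest starts lie in 1 core segment, and 4 of the 15 starts belong to Snrpn. The starts with H3K27me3 in WT before growth all belonged to Grb10, Mest, Plagl1 and Zdbf2. Of the 15 start windows of 250 bases, 8, 7 and 8 had H3K27me3 in WT at E18.5, P1 and P6 and 2 at P7, while 29.4%, 30.5%, 33.2% and 36.9% of all coding starts did. PRC1ctrl had 7 at P6 and 1 at P7, against 32.5% and 30.4%, and PRC1cKO 8 and 3, against 30.0% and 28.4%. Both PRC2ctrl and PRC2cKO had 7, against 33.2% and 27.0%. The 2 starts with H3K27me3 at P7 in WT were the second starts of Grb10 and Zdbf2. In PRC1ctrl at P7 the second Zdbf2 start was touched over 6 of its 250 bases. The 3 covered in PRC1cKO at P7 were the first Zdbf2 start and the last 2 of Mest, which nearly coincide. These hold motif matches, but the Plagl1 start, which holds 1 as well, was not covered. A link between the motif and the mark was not tested.

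For H2AK119ub 10, 8, 7 and 4 of the 15 were covered over the WT stages, against 61.4%, 48.6%, 52.3% and 34.8%, and 7 and 8 in PRC2ctrl and PRC2cKO, against 44.5% and 41.7%. The Plagl1 start had H2AK119ub in 6 of 6 lists and H3K27me3 in 7 of 10. The first Grb10 start, with its 40 CpG pairs, had the same counts. Peg3 had H2AK119ub at its start in 3 lists and H3K27me3 in none. The windows with 40, 26 and 19 CpG pairs (Grb10, Zdbf2 and Plagl1) had H3K27me3 in 7, 9 and 7 of 10 lists, and the 4 Snrpn windows in none. Mkrn3 with 10 and Nnat with 12 CpG pairs had none in any list, while the second Grb10 start with 8 had it in 8. A link to CpG content was not tested.

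Other imprinted genes were set beside these 10 by lists of domain partners (25 genes), further genes with maternally methylated control regions (17) and genes of paternally methylated regions (5). In WT from P6 to P7, 1 of 15 partners with at least 2 kb lost H3K27me3, against 17.9% of all such genes, and 12 of 25 gained it, against 16.1% of all genes. Of the further maternal genes 3 of 8 with at least 2 kb lost and 2 of 17 gained it, and 0 of the paternal genes were called either way. In PRC1ctrl at the same step 6 of 16 partners with at least 2 kb lost it, against 28.2%, and 8 of 25 gained it, against 11.3%. The further maternal genes had 4 of 7 lost and 2 of 17 gained, and the paternal genes 0 called. The partners thus went mainly the opposite way to the 10 genes in WT.

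The partners with the widest changes lie in the domains of Peg10, Plagl1, Peg3, Zdbf2 and Grb10. Ppp1r9a, the neighbour of Peg10 that encodes neurabin, went from 13.4 to 114 kb of H3K27me3 in WT and from 16.0 to 115 kb in PRC1ctrl. Phactr2, in the Plagl1 domain, went from 32.9 to 123 kb and from 34.6 to 99.0 kb. Usp29, next to Peg3, went from 3.52 to 84.3 kb and from 0 to 50.2 kb. Adam23, near Zdbf2, went from 0 to 53.7 kb and from 8.61 to 41.8 kb, and Ddc, the decarboxylase gene next to Grb10, from 21.0 to 72.9 kb and from 31.3 to 62.6 kb. The step from P6 to P7 thus came with longer H3K27me3 on these neighbours, named for their wide changes. H3K27me3 was shorter on Peg10, Plagl1 and Grb10 in both pairs of lists.

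In PRC1cKO at P7 most of these neighbours were below PRC1ctrl, whereas 5 of the 10 genes were above it. Ppp1r9a had 6.35 kb against 115 kb, Phactr2 16.8 against 99.0 kb, Usp29 4.32 against 50.2 kb and Adam23 14.9 against 41.8 kb. Cobl, a partner of Grb10, was higher, with 33.7 against 7.04 kb, so not all partners were lower. Over the whole partner list 6 of 17 with at least 2 kb were lost, against 27.6% of all such genes, and 5 of 25 gained, against 10.3% of all genes. Kcnq1, of the further maternal genes, was gained (57.6 against 10.3 kb). WT at P7 had 57.4 kb, so this call rested on a PRC1ctrl value that was also below WT. Kcnq1 had gone from 205 to 57.4 kb from P6 to P7 in WT and from 220 to 10.3 kb in PRC1ctrl.

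Genes of paternally methylated regions stayed broadly covered, with 5 of 5 carrying H3K27me3 in all 10 lists and median shares of 64.5%, 69.5%, 88.1% and 90.9% over the WT stages. The medians of the 10 genes were 20.4%, 20.4%, 25.2% and 5.32%, and those of all genes 4.03%, 3.74%, 5.60% and 7.95%.

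The genes most like each member over the 16 lists were named where its share ranged over more than 50 percentage points, by the smallest root mean square difference in covered share, leaving out genes within 1 Mb. Mest was closest to Grb10, at 9.51 points, and then to Sidt1, at 9.93. Grb10 was closest to Sidt1 (7.10 points), Kcnk13 (7.48) and Fem1al (7.65). Plagl1 was closest to Sgk1 (6.60), on the same chromosome, and Mkrn3 to Wdr49 (6.89). Nnat, near empty outside E18.5, was closest to Cxcr6 (1.19). The nearest gene to Peg10, Gm52310, differed by 13.5 points. Likeness here describes 16 lists that share stages and processing.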

How the data were processed

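Mouse oocytes were profiled by CUT&Tag for H3K27me3 and H2AK119ub. Each reaction held Drosophila S2 cells as a spike-in, and read length was 150 bp, per the labels. Per the submitters' processing notes, which give no roles, the tools were SAMtools, deepTools, Bowtie2, Picard 3.0.0 and Trim Galore 0.6.10, and the builds dm6, mm10 and GRCm38. Not given in the sources used here are the peak caller, its threshold, any scaling by the spike-in and how both samples of a group entered 1 list.

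The authors deposited 16 peak lists, 1 per group, with a signal summed over each peak in the 4th column and, as a score, the highest signal of the peak in the 5th, judged from the values. These signals are the authors' own, and were used only to describe or rank peaks within a list. Their normalization is unknown, as is read depth, so no counting interval is given.

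Gene spans and starts came from RefSeq (GRCm38.p6, 19 autosomes, X and Y). Peaks overlapping each window of span plus 5 kb were merged and clipped to it, and covered length was computed with Python 3.11.15, numpy 2.4.6 and pandas 2.3.3. The overlap minimum was 1 bp, and lost and gained calls needed 2 kb and a 2-fold difference. Start windows were planned to include bases after the start. The 250 bases before it were used instead. The coverage and call steps were tested on 500 simulated windows.

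All 10 members are named. Of the other imprinted lists, at most 6 genes per comparison were eligible to be named, those called with the largest change in covered length, and some are followed in further comparisons. The members and lists were chosen with earlier results of these data known. No sample's own values were used, since each list stands for a group. Alternatives were windows without flanks, the 25% of peaks with the lowest signal left out, at least 50% of the window covered, lists trimmed to equal covered length, and a 4-fold difference.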

Additional observations from a re-analysis of the deposited data

How the results depend on the processing

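No paired analysis was possible because each group has 1 list and no values per sample, and for the same reason no replicate was left out. Replicate error and read depth are unknown. Requiring at least 50% of the window covered left, for H3K27me3, 1, 1, 2 and 0 of the 10 genes in WT at E18.5, P1, P6 and P7, 2 and 1 in PRC1ctrl and PRC1cKO at P6, 0 and 1 in them at P7, and 3 and 2 in PRC2ctrl and PRC2cKO. For H2AK119ub it left 3, 4, 3 and 0 in WT, and 1 and 0 in PRC2ctrl and PRC2cKO.

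For H3K27me3 from P6 to P7 in WT, a 4-fold difference left 3 genes lost (Grb10, Mest and Snrpn), while gene spans without flanks left 4 and equal covered length 6. At the same threshold 2 genes were gained in PRC1cKO against PRC1ctrl at P7 (Mest and Mkrn3). From E18.5 to P1, 1 gene was gained (Plagl1) without flanks and without the lowest 25% of peaks. Leaving out those peaks also gave 0 lost in PRC1cKO at P6 and 1 gained in PRC1ctrl from P6 to P7 (Impact). In PRC2cKO, equal covered length gave 2 gained (Snrpn and Plagl1).

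For H2AK119ub from E18.5 to P1, 2 genes were lost without flanks and 1 was gained at equal covered length (Snrpn). From P1 to P6, 1 was lost without flanks, 2 without the lowest 25% and 2 at equal covered length, and 1 was gained without flanks and 1 without the lowest 25%. From P6 to P7, 1 was lost and 3 were gained at equal covered length, and 1 was gained without the lowest 25%. In PRC2cKO, 0 were lost at equal covered length and at the 4-fold difference, and 0 gained without flanks and without the lowest 25%. Between control lists, WT to PRC1ctrl at P6 had 0 gained without the lowest 25%, and WT to PRC1ctrl at P7 had 3 gained at equal covered length, 0 gained at the 4-fold difference, and 1 lost without flanks and without the lowest 25%. WT to PRC2ctrl for H2AK119ub had 1 gained without the lowest 25% and at equal covered length. The cause of these shifts was not tested. The other counts stayed within 1.5 times the reported ones.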
